A study of Rattus norvegicus with 6 samples.

Results

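The genes described here encode the C1q chains C1qb and C1qc and 3 further components of complement: C3, the protease factor D (Cfd) and the C1 inhibitor (Serping1). They were chosen by gene name. All probe sets annotated to exactly 1 of these 5 genes were taken, which gave 9 of the 8799 probe sets on the array. C1qc had 3 probe sets, C1qb and C3 had 2 each, and Cfd and Serping1 had 1 each. A probe set is a group of oligonucleotides on the array that together report 1 transcript.

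The arrays, 6 in all and each read in 1 colour, carried total RNA from the rat spinal cord near thoracic segment 8. The contused group held 3 samples from the epicenter, the point of impact of a blunt blow to the cord, taken at day 35 after injury. The uninjured group held 3 samples from the same position in animals without injury. The labels give no strain, age or sex, name no sham operation, give no time for the uninjured samples and leave unsaid whether each sample is a separate animal. Surgery, elapsed time and contusion therefore cannot be told apart here, and p-values measure only the spread between samples, part of which may be technical.

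Complement is a cascade of plasma and tissue proteins that tags targets for removal. In the classical pathway C1q, a bundle of A, B and C chains, binds a target and switches on the proteases C1r and C1s, which C1 inhibitor shuts off. All pathways meet at the cleavage of C3, and factor D is the protease that lets the alternative pathway amplify that step. In the brain and spinal cord C1q is made mainly by microglia and macrophages, whereas C3, C1r, C1s and C1 inhibitor can come from astrocytes, vessel and meningeal cells as well. In the nervous system C1q and C3 are also known to tag synapses and debris for uptake by phagocytes.

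Of the 9 probe sets, 8 could be tested and 5 of these rose after contusion, covering C1qb, C1qc, Cfd and Serping1. None fell. Cfd was above the floor described below on its contused arrays alone and entered the test through them. The same 5 were those in which every contused array lay above every uninjured array. Over the whole table, 7.79% of the 6705 probe sets tested rose and 9.59% fell in the same fit (17.4% either way), and 16.6% had every contused array above every uninjured array. Neither C3 probe set passed the threshold, an adjusted p of 0.05 in limma. The test was run on log2 signals, with values below a floor of 61.6 set to it, and probe sets brighter than the floor on 3 or more of the 6 arrays entered it.

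The 6 arrays were close in overall brightness, with median signals of 122 to 127 on the contused and 124 to 126 on the uninjured arrays. Correlations of log2 signals across probe sets were 0.969 to 0.983 within groups and 0.936 to 0.951 between them. Mbp, the myelin basic protein gene that marks cord white matter, was bright in both groups, at 5140 to 6110 on the contused and 5037 to 6072 on the uninjured arrays. The ratio of 3' to 5' signal of the GAPDH control, a measure of RNA integrity, was 1.08 to 1.12 on the contused and 1.13 to 1.17 on the uninjured arrays. The beta-actin ratio overlapped between the groups (contused 1.11 to 1.24, uninjured 1.03 to 1.28). The part of RNA integrity in the results below was not tested. Uninjured array 3 stood apart in the summed signal of fibroblast and meninges markers, which was 10564 there, against 15338 and 18546 on the other uninjured arrays. Without it 659 probe sets were called, against 1165 with all arrays.

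The stretch of 250 bases before the annotated start is printed for C1qb, the member with the largest rise, and for C3, the member whose probe sets did not pass. Capitals mark the letters GAGGAA, the core of sites for PU.1 and other ETS factors, and TTGCNNAA, the core of C/EBP sites, on either strand (TTCCTC is the first of these read from the other strand). The sequences are RefSeq's, build GRCr8, minus strand, at chr5:154407828-154408077 for C1qb and chr9:2201340-2201589 for C3.
C1qb: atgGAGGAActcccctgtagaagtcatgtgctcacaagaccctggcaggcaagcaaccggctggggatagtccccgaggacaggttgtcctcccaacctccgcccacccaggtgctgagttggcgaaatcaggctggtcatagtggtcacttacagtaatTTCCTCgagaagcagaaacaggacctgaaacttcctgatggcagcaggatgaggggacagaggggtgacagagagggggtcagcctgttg
C3: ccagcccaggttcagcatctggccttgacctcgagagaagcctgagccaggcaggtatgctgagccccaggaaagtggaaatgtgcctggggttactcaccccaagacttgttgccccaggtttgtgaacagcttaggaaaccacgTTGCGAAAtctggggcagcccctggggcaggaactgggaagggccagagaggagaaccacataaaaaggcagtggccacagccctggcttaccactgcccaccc
The C1qb stretch held GAGGAA 2 times, starting 247 and 90 bases before the start, and no TTGCNNAA. The C3 stretch held TTGCNNAA once, starting 104 bases before the start, and no GAGGAA. Of 33469 rat promoter stretches of this length, 23.3% held GAGGAA and 9.22% held TTGCNNAA, so that such letters are frequent. A loose form of the NF-kB site, GGG and CC with any 5 bases between them, gave 4 matches in C1qb, 1 of which overlaps the more distant GAGGAA, and 5 in C3, where 2 of the 3 stretches match on both strands. They were found in 42.3% of all stretches. GAAA repeated after any 2 bases, as in IRF sites (3.41% of stretches), and TATAAA (12.9%) were in neither. The Cfd stretch held none of the 5 motifs. A sequence was available for 3 of the 5 members. These matches describe letters and were not tested for binding.

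C1qb encodes the B chain of C1q. Its plain probe set, X71127_at, gave signals of 1389, 1440 and 1337 on the contused arrays, against 333, 447 and 315 on the uninjured arrays. The companion probe set to the same transcript, X71127_g_at, gave 1069, 1045 and 999 on the contused arrays, against 198, 250 and 164 on the uninjured arrays. In both, the groups were far apart and the contused arrays were within a narrow band. X71127_at averaged 1389 ± 51.6 in contused and 365 ± 71.1 in uninjured cord (SD, n = 3 each), a 3.85-fold rise (log2 change 1.94, SE 0.15, limma adjusted p = 3.01e-05). X71127_g_at averaged 1038 ± 35.1 in contused and 204 ± 43.4 in uninjured cord, a 5.16-fold rise (log2 change 2.37, SE 0.16, limma adjusted p = 1.77e-05). By size of log2 change these were 13th and 6th of the 6705 probe sets tested. Both calls held with each array left out in turn.

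C1qc encodes the C chain. In the GRCr8 annotation its gene lies directly beside C1qb with 0 genes between them, and C1qa, which encodes the A chain, follows with 0 genes between. C1qa is not analysed here. The probe set rc_AA891576_s_at gave 393, 517 and 359 on the contused arrays, against 108, 124 and 97.0 on the uninjured arrays. The groups did not overlap. The rise was 3.83-fold, to 423 ± 82.9 in contused cord against 110 ± 13.6 in uninjured cord (log2 change 1.94, SE 0.17, limma adjusted p = 6.96e-05), and it held with each array left out.

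The other C1qc probe sets, taken from the same clone sequence, did not show that rise. For rc_AA891576_r_at the signals were 213, 266 and 172 on the contused arrays, against 212, 172 and 156 on the uninjured arrays, so that the groups overlapped (log2 change 0.26, SE 0.19, limma adjusted p = 0.412). For rc_AA891576_i_at they were 28.6, 89.0 and 49.7 on the contused arrays, against 51.3, 55.7 and 49.6 on the uninjured arrays. Only contused array 2 was above the floor there, and the probe set was not tested. On this array type the letters i and r mark probe sets that fell short of the design rules, and s marks oligonucleotides that can match more than 1 transcript. The 3 probe sets of C1qc therefore disagree, and its call rests on the s probe set alone. The same limit of s probe sets holds for the only probe set of Cfd, the brighter one of C3 and, among others, those of Clu and Cr1l below.

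The log2 changes of C1qb and C1qc depended on the probe set, with 2.37 for X71127_g_at of C1qb and 0.26 for rc_AA891576_r_at of C1qc. Set against each other within each array, X71127_at of C1qb and the s probe set of C1qc changed by similar amounts. The difference of their log2 changes was 0.007, with a 95% interval of -0.39 to 0.41 from the spread within groups (exact permutation p = 1, adjusted over 10 pairs of members p = 1).

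**Figure D1:**
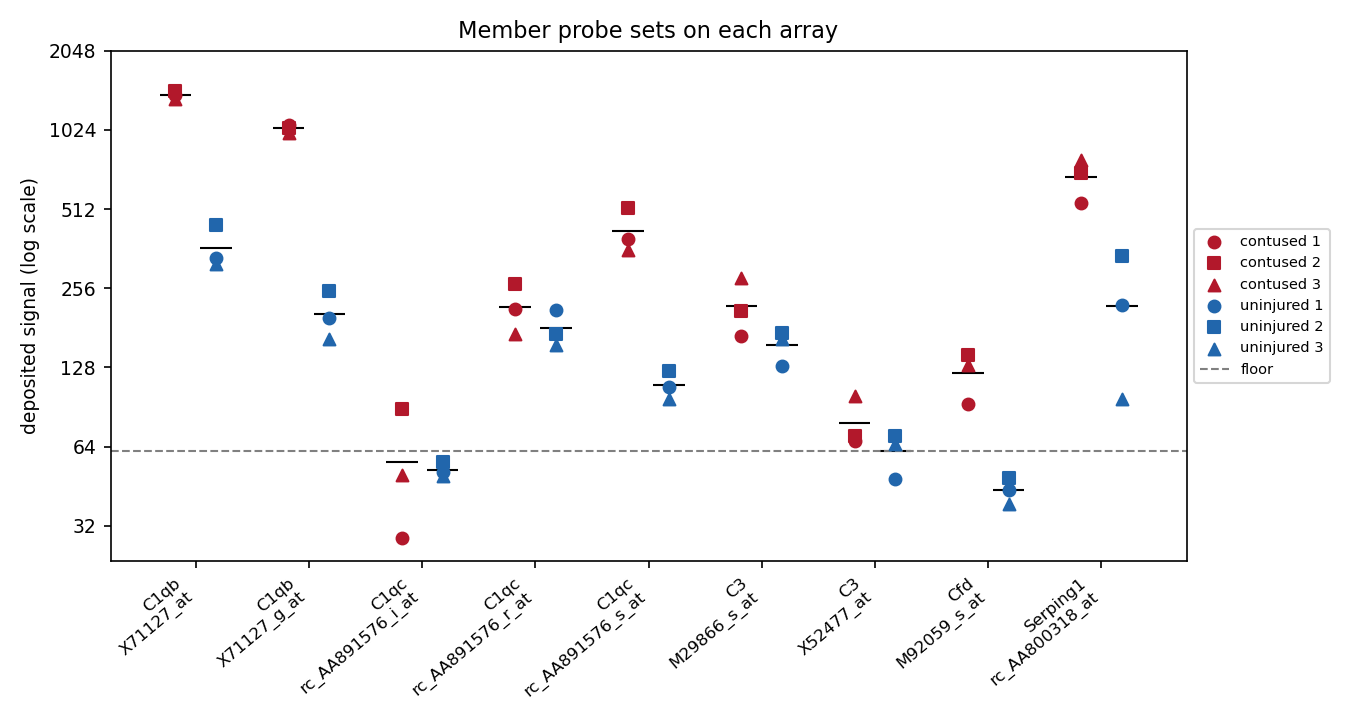
Deposited signal of each member probe set on a log2-spaced axis, contused arrays in red left of uninjured arrays in blue, with bars at the group means and a dashed line at the floor of 61.6. The groups are apart for both C1qb probe sets, the C1qc s probe set, Cfd and Serping1, and overlap for the other C1qc and both C3 probe sets.

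Serping1 encodes C1 inhibitor, a serpin that inactivates C1r and C1s and also restrains kallikrein and factor XII. It gave 542, 701 and 784 on the contused arrays, against 220, 338 and 97.0 on the uninjured arrays. All contused arrays were higher, but the uninjured arrays were widely spread, with array 3 the lowest. The means were 676 ± 123 in contused and 218 ± 121 in uninjured cord (SD, n = 3 each), a 3.45-fold rise (log2 change 1.79, SE 0.36, limma adjusted p = 0.00721). Its SE was the largest of the tested members. Without uninjured array 3 the log2 change was 1.29 (limma adjusted p = 0.00776), and the call held with each array left out. It was lost when dim probe sets were not filtered out (limma adjusted p = 0.117).

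The C1 proteases, which are the targets of C1 inhibitor, had a similar spread. C1r gave 286, 410 and 407 on the contused arrays, against 156, 227 and 82.8 on the uninjured arrays (log2 change 1.34, SE 0.31, limma adjusted p = 0.0138). C1s gave 291, 320 and 519 on the contused arrays, against 234, 245 and 125 on the uninjured arrays (log2 change 0.92, SE 0.28, limma adjusted p = 0.0482). For all 3 genes uninjured array 3 was lowest and uninjured array 2 highest within its group, and contused array 1 was lowest within its group. The call of C1r was lost without contused array 2 (limma adjusted p = 0.0637), and that of C1s without any 1 of the 6 arrays (up to 0.166, without uninjured array 3) and without an intensity trend (0.0511). Neither call was kept without the filter on dim probe sets (0.145 for C1r and 0.245 for C1s).

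Some fibroblast and meninges markers rose on the same arrays as these genes. Of 13 on the array 11 were tested, 5 rose and 1 fell, with a median log2 change of 0.68. Only 2 rose without contused array 2, and 1 without the filter on dim probe sets. Summed over all their probe sets the signal was 17197, 22420 and 21147 on the contused arrays, against 15338, 18546 and 10564 on the uninjured arrays. Dcn, Lum, Mgp, Pdgfra and Igf2 did not pass. Postn was at the floor on all arrays, and Thy1, which fell, also marks neurons. Col3a1, a fibrillar collagen, gave 960, 1425 and 1452 on the contused arrays, against 583, 685 and 152 on the uninjured arrays. Here too uninjured array 3 was the lowest. Col3a1 is named because it was 1 of the 3 genes nearest to Serping1 over these arrays. Its shared pattern is therefore no separate support. The part of these cells in the values of Serping1, C1r and C1s was not tested. In bulk tissue, more cells of a type and more RNA per cell cannot be told apart, for any gene described here.

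C3 is the central component whose fragments coat targets and feed the receptors of phagocytes. M29866_s_at gave 168, 210 and 279 on the contused arrays, against 130, 173 and 164 on the uninjured arrays. Contused array 1 lay below uninjured array 2, so the groups overlapped. The means were 219 ± 55.9 in contused and 156 ± 23.0 in uninjured cord (SD, n = 3 each), with a log2 change of 0.47 (SE 0.20, limma adjusted p = 0.143). X52477_at was near the floor, with 66.9, 70.0 and 100 on the contused arrays, against 48.3, 70.3 and 65.6 on the uninjured arrays (log2 change 0.24, SE 0.16, limma adjusted p = 0.341). Contused array 3 was the highest in both. That neither probe set passed does not show that the level of C3 was the same.

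Cfd encodes factor D, also called adipsin because fat cells release it. It gave 92.7, 143 and 131 on the contused arrays, against 43.6, 48.6 and 38.8 on the uninjured arrays. All contused arrays were above the floor and all uninjured arrays below it, so the fold is a bound, and the probe set entered the test only through the group in which it was high. Cfd was at least 1.95-fold higher after contusion (limma adjusted p = 0.00253), and the call held with each array left out. Since all uninjured values were set to the floor, this p measures no spread in uninjured cord. Nor is it independent of the filter, which the probe set passed by its own rise. With all probe sets entered, whatever their brightness, the adjusted p was 0.0432. With no floor the log2 change was 1.47 (limma adjusted p = 0.000566), a value that rests on dim uninjured signals. Of fat cell markers, 8 were on the array and 7 were tested. Lpl, a lipase that macrophages make too, was higher (at least 1.63-fold). Like Cfd, its called probe set was below the floor on all uninjured arrays and entered the test only through the contused arrays. Another Lpl probe set, which entered in the same way, did not pass (log2 change 0.28, limma adjusted p = 0.205). Fabp4, a fatty acid-binding protein, was lower (log2 change -0.68), but with no floor 0 were lower. When signals under 125 rather than 61.6 were treated as dim, 0 fat cell markers were higher and 0 lower. The summed signal of the fat cell markers was 1913 to 2102 on the contused arrays, against 1688 to 2022 on the uninjured arrays, and Pparg was at the floor on all arrays.

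**Figure D2:**
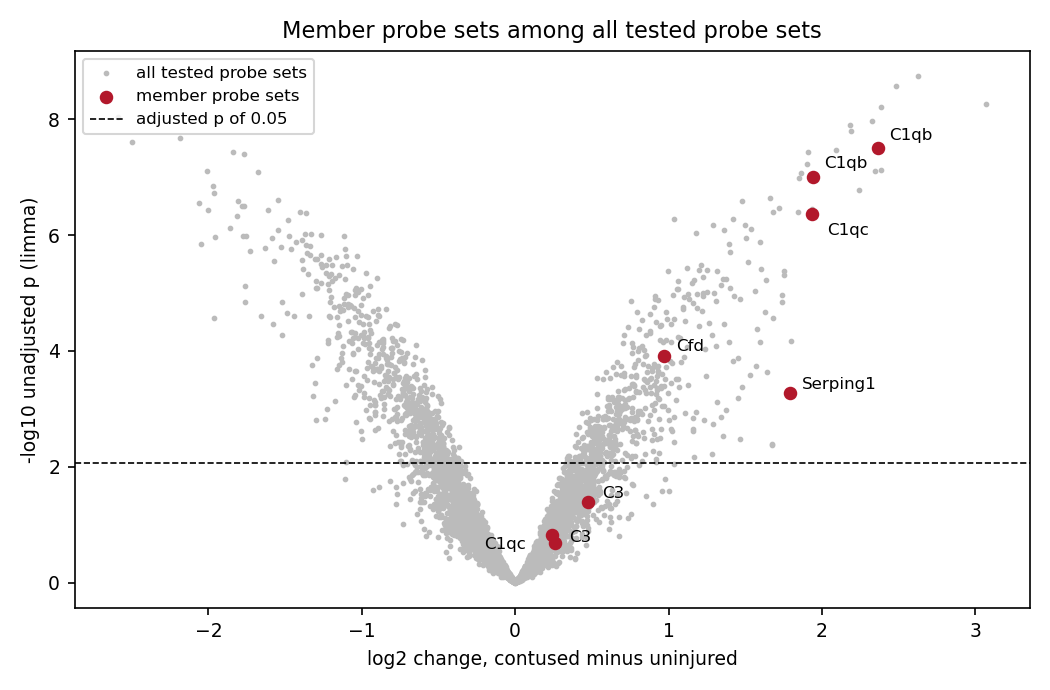
Log2 change, contused minus uninjured, against -log10 of the unadjusted limma p for all 6705 tested probe sets in grey, with the 8 tested member probe sets in red and a dashed line where the adjusted p reaches 0.05. Both C1qb probe sets and 1 of C1qc lie at the upper right, Serping1 lies a little to their left and lower, and C3 stays below the line.

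The sizes of the members' changes were compared in 10 pairs, none of which passed after adjustment. Within arrays, the log2 change of C1qb (X71127_at) exceeded that of C3 (M29866_s_at) by 1.47 (95% interval 0.72 to 2.22). The s probe set of C1qc exceeded C3 by 1.46 (0.54 to 2.39), whereas the log2 change of its probe set rc_AA891576_r_at, 0.26, was below that of C3. In both pairs the contused and uninjured arrays did not overlap, and the exact permutation p was 0.1 each, two-sided and the smallest that 3 against 3 arrays allow (adjusted over 10 pairs p = 0.2). The intervals are not adjusted for the number of pairs. Serping1 exceeded C3 by 1.32 with no overlap either (exact permutation p = 0.1), although its interval of -0.21 to 2.84 included 0. C1qb and Serping1 differed by 0.16 (-1.06 to 1.37, exact permutation p = 0.7). Pairs with Cfd are not given, since its uninjured signals were set to the floor.

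Most markers of microglia and macrophages rose on the same arrays as C1q. All 13 on the array were tested, 12 rose and 0 fell, with a median log2 change of 1.22. Csf1r, which encodes a growth factor receptor of macrophages, did not pass (log2 change -0.33, limma adjusted p = 0.175). Without contused array 2, or without the filter on dim probe sets, 8 rose. Their summed signal was 12233, 12979 and 13145 on the contused arrays, against 5434, 6072 and 4948 on the uninjured arrays, and no marker was at the floor throughout. Set against the mean of this list within each array, the log2 change of C1qb was larger by 0.72 (95% interval 0.37 to 1.06) and that of the C1qc s probe set by 0.71 (0.27 to 1.16). The log2 change of C3, which did not pass the threshold, lay below the mean of the list, with a difference of -0.75 (-1.36 to -0.14). For these 3 genes the groups did not overlap, with an exact permutation p of 0.1 each, the smallest possible (adjusted over 5 members p = 0.167). For Serping1 the difference was 0.56 (-0.81 to 1.93, exact permutation p = 0.3) and the groups overlapped. For Cfd, at the floor in uninjured cord, no difference from the list is given. Fcgr2b of the list was at the floor in uninjured cord too, which lowers the list's mean change. The log2 changes of single markers ran from -0.33 for Csf1r to 3.07 for Lgals3. C1qb and C1qc were therefore above the mean of the list but not above each of its markers. The C1qc probe set rc_AA891576_r_at, at 0.26, lay below the list's mean change of 1.22.

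**Figure D3:**
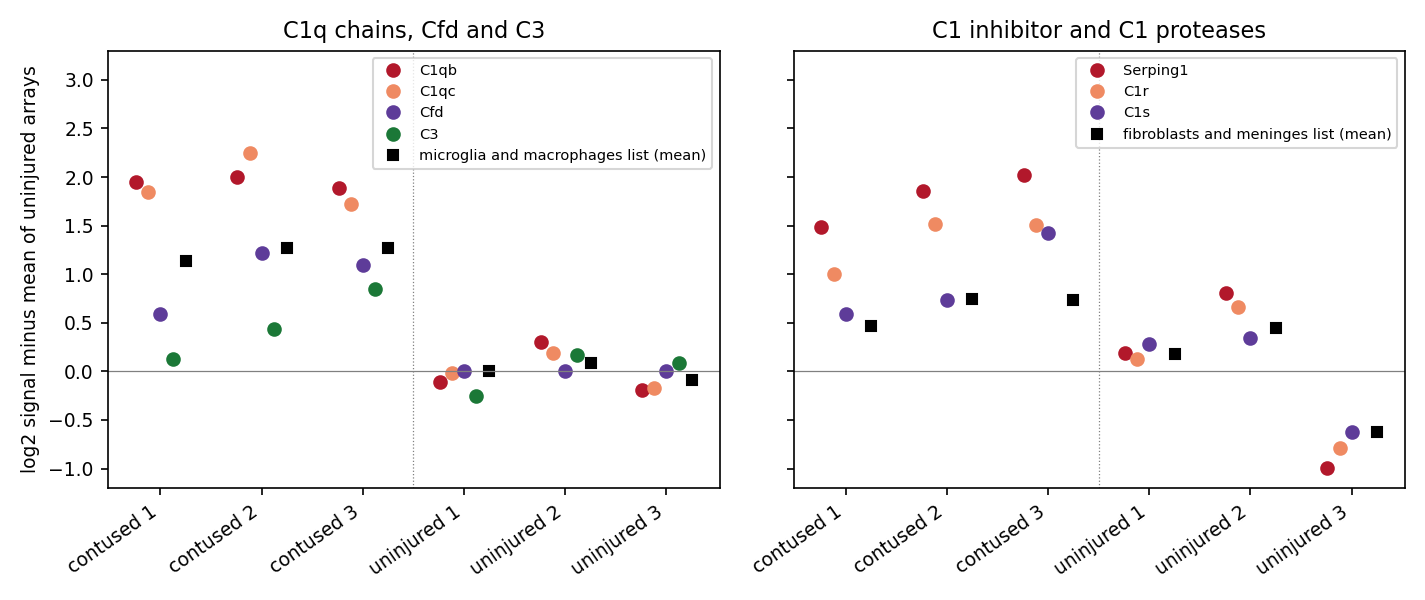
Log2 signal on each array minus the mean of the uninjured arrays, for C1qb, C1qc, Cfd and C3 beside the mean of the microglia and macrophage list (left), and for Serping1, C1r and C1s beside the mean of the fibroblast and meninges list (right). On the left the uninjured arrays lie near 0, and on the right uninjured array 3 lies below the other uninjured arrays for all 3 genes and the list.

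Over 3954 other genes, those closest to each member were found by the mean absolute difference of log2 signals over the 6 arrays, each gene taken relative to its mean in uninjured cord. C1qb was nearest to Grn (progranulin, 0.05), then to Cd53, a leukocyte tetraspanin (0.09), and to C1qc (0.13). C1qc was nearest to Grn (0.10), Cp (the copper protein ceruloplasmin, 0.12) and C1qb (0.13). Serping1 had no such close match. Its nearest genes were Arpc1b, an actin regulator, Col3a1 and the matrix protein gene Efemp1, each at 0.18. C3 lay nearest to Tpm3 (0.08), Nipbl and Ptpn2 (0.11 each), none of which passed the threshold. For Cfd no nearest genes are given, since its uninjured values were all set to the floor.

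The wider pathway was read from 5 lists grouped by role. Of 53 listed genes, the members included, 26 were on the array and 22 were tested. In these, 9 were higher and 0 lower after contusion, with a median log2 change of 0.36. Cfd and Itgam, among the 9, entered the test only through their contused arrays. Over all 3955 genes tested, 7.13% were higher and 17.2% changed in either direction, with a median of -0.02. With the 5 members left out, 5 of 17 were higher and 0 lower, with a median of 0.26.

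Of the genes that start the cascade, 5 of 7 tested rose: C1qb, C1qc, C1r, C1s and Masp1. Masp1, a protease of the lectin pathway that binds mannose-binding lectins, gave 289, 356 and 258 on the contused arrays, against 205, 148 and 182 on the uninjured arrays (log2 change 0.76, limma adjusted p = 0.0142). Its call was lost without contused array 2 (0.0714), without uninjured array 2 (0.052) and without the filter on dim probe sets (0.0794). For Mbl1, a mannose-binding lectin, the brighter probe set did not pass (log2 change 0.34, limma adjusted p = 0.176) and the dimmer one did (0.55, 0.0293). That call was lost without contused array 1 or uninjured array 2 or 3 (up to 0.111) and without the filter (0.116). Crp (C-reactive protein, which can bind C1q) had a log2 change of -0.15 in its brightest probe set (limma adjusted p = 0.648). Its other probe sets gave -0.21 (0.602) and 0.13 (0.714), so that the signs differed and none passed. Mbl2 was not tested.

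At the central and alternative steps Cfd rose, while C3 and Cfp did not pass. Cfp encodes properdin, which stabilises the C3 convertase. Its tested probe set gave 196, 170 and 165 on the contused arrays, against 148, 147 and 168 on the uninjured arrays (limma adjusted p = 0.41). A dimmer one, below the floor throughout, gave 45.2 to 58.2 on the contused and 26.0 to 30.4 on the uninjured arrays and was not tested. In the terminal pathway, whose products form the membrane pore, C8b had a log2 change of 0.07 (limma adjusted p = 0.798). C9 was above the floor on contused array 1 alone and was not tested.

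Among regulators 2 of 7 tested genes rose, Serping1 and Clu. Clu encodes clusterin, a secreted chaperone that also blocks the terminal complex. It gave 4173, 5552 and 4782 on the contused arrays, against 2770, 3080 and 2615 on the uninjured arrays, with no overlap (log2 change 0.77, SE 0.12, limma adjusted p = 0.00193). This call held under all 13 alternatives run. Cr1l, the rodent membrane regulator Crry, had a log2 change of 0.38 in its brighter probe set (limma adjusted p = 0.0912) and 0.69 in the other (0.0102, a call lost without contused array 2 at 0.0503 and without uninjured array 3 at 0.0531). Cd55 (decay-accelerating factor, log2 change 0.27, limma adjusted p = 0.0905), Vtn, Cd46 and C4bpb did not pass, and C4bpa was at the floor on all arrays. Without the filter on dim probe sets Cd55 was called higher (limma adjusted p = 0.00914).

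Of receptors and binding partners 1 of 4 tested rose. This was Itgam, the CD11b chain of the receptor for C3 fragments and itself a marker of microglia and macrophages. It gave 87.0, 76.9 and 93.1 on the contused arrays, against 34.9, 35.5 and 38.9 on the uninjured arrays, where all were below the floor. It therefore entered the test only through the contused arrays, and its p-values, as for Cfd, measure no spread in uninjured cord. It was at least 1.39-fold higher (limma adjusted p = 0.0161, and 0.0302 with all probe sets entered), a call lost without uninjured array 2 (0.052) or 3 (0.0677). C5ar1, the receptor for the C5a fragment, had a log2 change of 0.26 (limma adjusted p = 0.312). Calr (calreticulin, 0.09) and C1qbp (a mitochondrial protein that can bind C1q, -0.24) did not pass either. C3ar1, the receptor for the C3a fragment, was at the floor on all arrays.

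**Figure D4:**
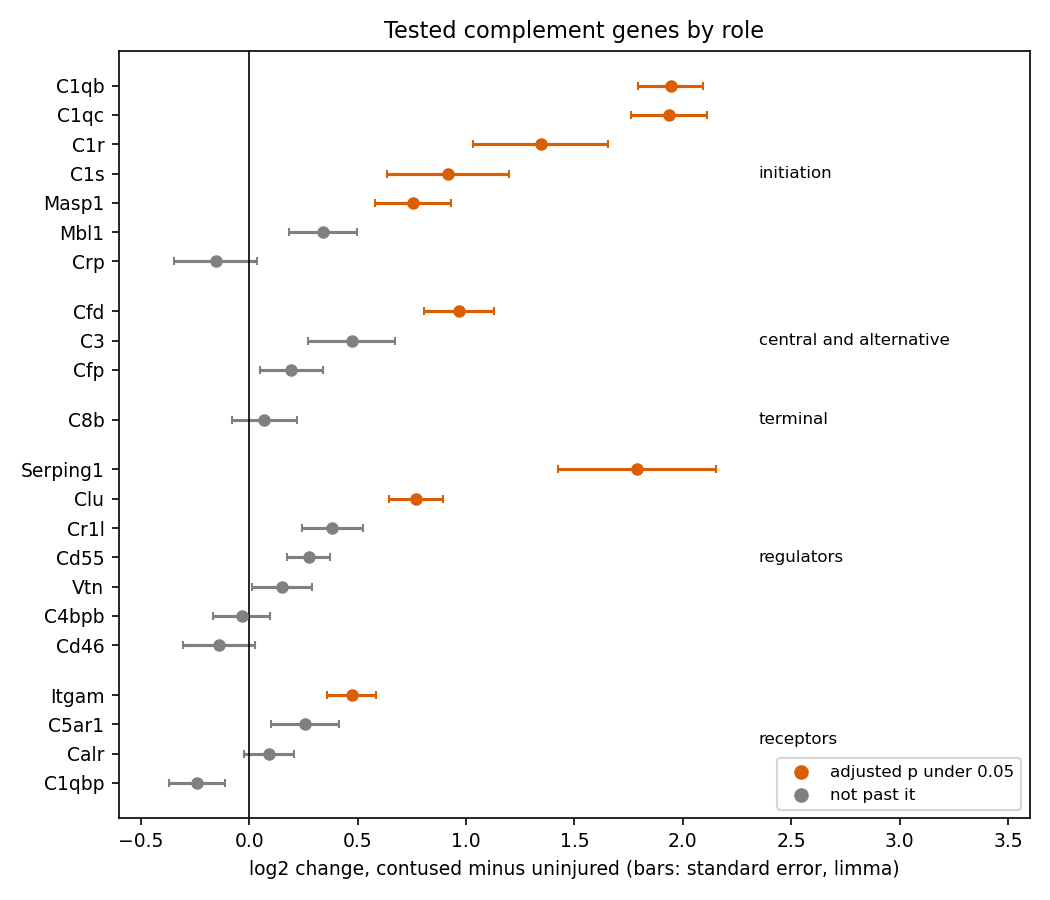
Log2 change, contused minus uninjured, with limma standard errors for the 22 tested complement genes grouped by role, each by its brightest tested probe set, orange where the adjusted p is under 0.05. The initiation group holds 5 of the 9 rises, and no gene passed in the other direction.

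Other sources of complement were followed by their markers. Astrocyte markers rose in 3 of 11 cases with 0 lower (median log2 change 0.09; summed signal 24119 to 26390 on the contused and 23069 to 24342 on the uninjured arrays). The genes that rose were Vim, Fabp7 and Gja1, and 1 rose without contused array 2 or 3 or uninjured array 3, with 0 rising without the filter. In each of these genes uninjured array 3, low in the fibroblast and meninges markers, was the lowest array. Aqp4, Slc1a2, Slc1a3, S100b, Aldh1l1, Glul, Aldoc and Agt did not pass. Of 10 tested liver and plasma protein genes 1 was higher, Alb, with a median of 0.06 and summed signals of 2601 to 3050 on the contused and 2408 to 2865 on the uninjured arrays. The called Alb probe set was near the floor in uninjured cord (58.2 to 77.9). Another did not pass (log2 change 0.24, limma adjusted p = 0.289), and the rest were not tested. Ttr and Fgg were at the floor on all arrays, and 0 of this list were higher without contused array 2 or 3 or uninjured array 1 or 2. Neuron markers were lower in 12 of 13 cases and oligodendrocyte markers in 5 of 9, with 0 higher in each. Of 8 tested lymphocyte markers Cd4 alone was higher. None passed in limma among endothelial (0 of 6, with 1 lower at an unadjusted p of 0.05), Schwann cell (0 of 6, with 2 higher, and 1 or 2 called higher under several of the alternatives), blood cell (0 of 3, with 1 higher and 1 lower) and neutrophil markers (0 of 1, with 0 at an unadjusted p of 0.05). Of the endothelial list a dimmer probe set of the glucose transporter gene Slc2a1 was lower (log2 change -0.91, limma adjusted p = 0.0129). The part of any of these cell types in the members' values was not tested.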

How the data were processed

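The table the authors deposited gives a linear intensity for every probe set on every array; the scale was judged from the skew of the values and from 21 to 32 of them per array being negative. Their summarisation, background and scaling steps are unknown here. Trimmed means (2% off either end) differed between arrays by 8.94% at most, from 209 to 228, and no further scaling was applied. Of 8799 probe sets, 59 controls were left out. A single gene was annotated to 7006 of the remaining 8740, several to 308 and none to 1426. Symbols came from the array annotation, updated through gene identifiers to GRCr8 names for 6985 and kept for 21.

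Values under the pooled 25th percentile (61.6, or 5.94 on the log2 scale) were set to it. Log2 changes understate differences at that floor. The fit used limma 3.58.1 under R 4.3.3 (lmFit, then trended eBayes, two-sided, no covariates, 4 residual degrees of freedom), with Benjamini-Hochberg adjustment over 6705 probe sets. A fold against a group wholly at the floor sets the mean log2 value of the brighter group against that floor. In simulated arrays with 200 changed probe sets, limma recovered 82% of log2 changes of 1 and 98% of changes of 2, with 2 false calls. The changes were placed only in probe sets with uninjured means more than 1 log2 unit above the floor. Noise was normal and independent between probe sets. These rates therefore do not cover dimmer probe sets, such as those of Cfd, Itgam and the C1qc s probe set, or deviations shared by many genes on 1 array. Each gene is represented by its brightest tested probe set. Differences between members and from marker lists were taken within arrays and tested by exact permutation. The number of arrays limits the precision. Plots and tables were made in Python 3.11.15 with matplotlib 3.10.9 and pandas 2.3.3.

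The members, the 17 gene lists (135 of 214 genes on the array) and the tests were chosen with earlier results of these data known. Named are all member probe sets, the tested complement genes, up to 3 called genes or the 2 brightest of a marker list where a result turns on them, and the 3 genes nearest to each member. Alternatives tried were 2 scalings, 2 floors, no filter, no trend, a replicate block, leaving out each array and averaging a gene's probe sets.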

Additional observations from a re-analysis of the deposited data

How the results depend on the processing

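Over 13 alternatives, or 12 for Cfd, the calls of both C1qb probe sets, the C1qc s probe set and Cfd were kept, with log2 changes of 1.85 to 2.10 for X71127_at, 2.22 to 2.52 for X71127_g_at, 1.74 to 2.05 for C1qc and 0.84 to 1.47 for Cfd. Serping1 kept its call in 12 of 13 (1.29 to 2.19), and no alternative called either C3 probe set (lowest adjusted p = 0.0709). The count of member probe sets was 5, except 4 when dim probe sets were kept in (Serping1 lost) and 4 after raising the floor to the pooled 50th percentile, where Cfd no longer entered the test. Of the complement genes, 6 to 9 were higher with 1 array left out, 6 without the filter, 7 with the higher floor, 8 without a trend and 11 with probe sets averaged per gene, and 0 were lower in each. The 6 without the filter include Cd55, which the main fit did not call, while Serping1, C1r, C1s and Masp1 lost their calls there. Over all probe sets, 662 were called without the filter, 266 higher and 396 lower, against 1165 (522 and 643), and the cause was not tested. With 1 array left out the count ran from 659 to 1260, 276 to 484 higher and 383 to 776 lower. The lowest counts were those without uninjured array 3 (659, with 276 higher and 383 lower) and contused array 2 (723, with 295 higher and 428 lower). Whether equal array numbers pair the samples cannot be decided with 3 arrays per group. Correlations of deviations were 0.05, 0.22 and -0.24 between arrays of the same number, and -0.26 to 0.26 between those of different number. With a replicate block 1200 probe sets were called, 535 higher and 665 lower, and no call of a member or complement gene changed. Signals near the floor limit what can be said of Cfd, Itgam, C9, C3ar1 and the dimmer C3 probe set.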
